A study of Mus musculus with 15 samples.

Results

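The Bcl-2 family genes described here are 10 genes that set whether a neuron's mitochondria release the factors that start apoptosis. They were taken by symbol from a table of 36144 genes, and all 10 were found: the effectors Bax, Bak1 and Bok, the BH3-only genes Bbc3, Pmaip1 and Bcl2l11, and the pro-survival genes Bcl2, Bcl2l1, Bcl2l2 and Mcl1. The first 6 are called pro-death and the last 4 pro-survival. RNA was measured in lumbar motor neurons of segments L1 to L3, labelled with cholera toxin subunit B (a tracer that motor axons carry back to the cell body) and cut out by laser-capture microdissection at postnatal day 6. There were 15 libraries in 5 groups of 3, on an FVB background with males and females in equal proportion. WT mice were littermates with the genotype Smn+/+;SMN2;SMNΔ7, and all other groups were SMA mice with the genotype Smn-/-;SMN2;SMNΔ7, a severe model of spinal muscular atrophy. The human SMN2 and SMNΔ7 transgenes were therefore shared by all groups, controls included. WT and SMA mice received vehicle. The treated SMA mice received MW150 (an inhibitor of the kinase p38α) at 5 mg/kg, Pifithrin-α (an inhibitor of p53) at 2.2 mg/kg or SMN-C3 (a compound that shifts how SMN2 is spliced), dosed at 3 mg/kg, by daily intraperitoneal injection from postnatal day 0. The replicates were called biological in the series' design text, which does not say whether a library holds 1 animal or several.

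In the mitochondrial pathway of apoptosis, stress signals raise BH3-only proteins, which bind the pro-survival proteins and free or activate the effectors. Bax and Bak1 then form pores in the mitochondrial outer membrane, cytochrome c escapes, and the apoptosome activates caspases. Bbc3 (the protein PUMA), Pmaip1 (the protein NOXA) and Bax are textbook targets of the transcription factor p53. Developing neurons rely on Bax for programmed death, and Bcl2l1 (the protein Bcl-xL) and Mcl1 are known for keeping neurons alive.

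Levels are given as TPM, the share of a library that falls on a transcript after scaling by its length, so that genes can be set side by side. Every library summed to 1000000 TPM, and the depth behind the values is unknown because TPM keep no counts. Smn1 checked the genotype: it read 8.97 to 23.3 TPM in WT libraries, 0 to 0.462 in SMA libraries and 0 to 1.498 in those of treated mice. All 10 motor neuron markers reached 1 TPM in every library, with summed levels of 8191 to 13152 TPM. Mitochondrially encoded genes took 21.9% of TPM in WT 1 and 20.4% in SMA+Pifithrin-α 3. SMA+Pifithrin-α 2 had 12.6% and SMA+SMN-C3 1 had 11.3%, and the remaining libraries had 3.76% to 7.55%. Markers of some other cells also differed between the groups. The 13 microglia markers summed to 78.0 to 108 TPM in WT, 199 to 241 in SMA, 147 to 207 in SMA+MW150, 88.5 to 154 in SMA+Pifithrin-α and 103 to 138 in SMA+SMN-C3, and none was at 0 in any library. The 10 oligodendrocyte lineage markers summed to 688 to 2077 TPM in WT against 888 to 4260 in SMA. The 10 astrocyte markers summed to 956 to 1856 TPM in WT against 1619 to 2305 in SMA. Both of these lists overlapped between WT and SMA, as did vascular and red blood cell markers. The 8 vascular markers summed to 54.8 to 66.9 TPM in WT against 19.8 to 95.6 in SMA. For the 5 red blood cell markers the sums were 676.5 to 2261 TPM in WT against 788 to 3548 in SMA. The 6 spinal interneuron markers summed to 4.07 to 9.78 TPM in WT, against 11.9 to 20.2 in SMA, with at most 1 of them at 0 in a library. The part of these cells in the results below was not tested. In bulk samples fewer cells of a type and less RNA per cell cannot be told apart.

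**Figure D1:**
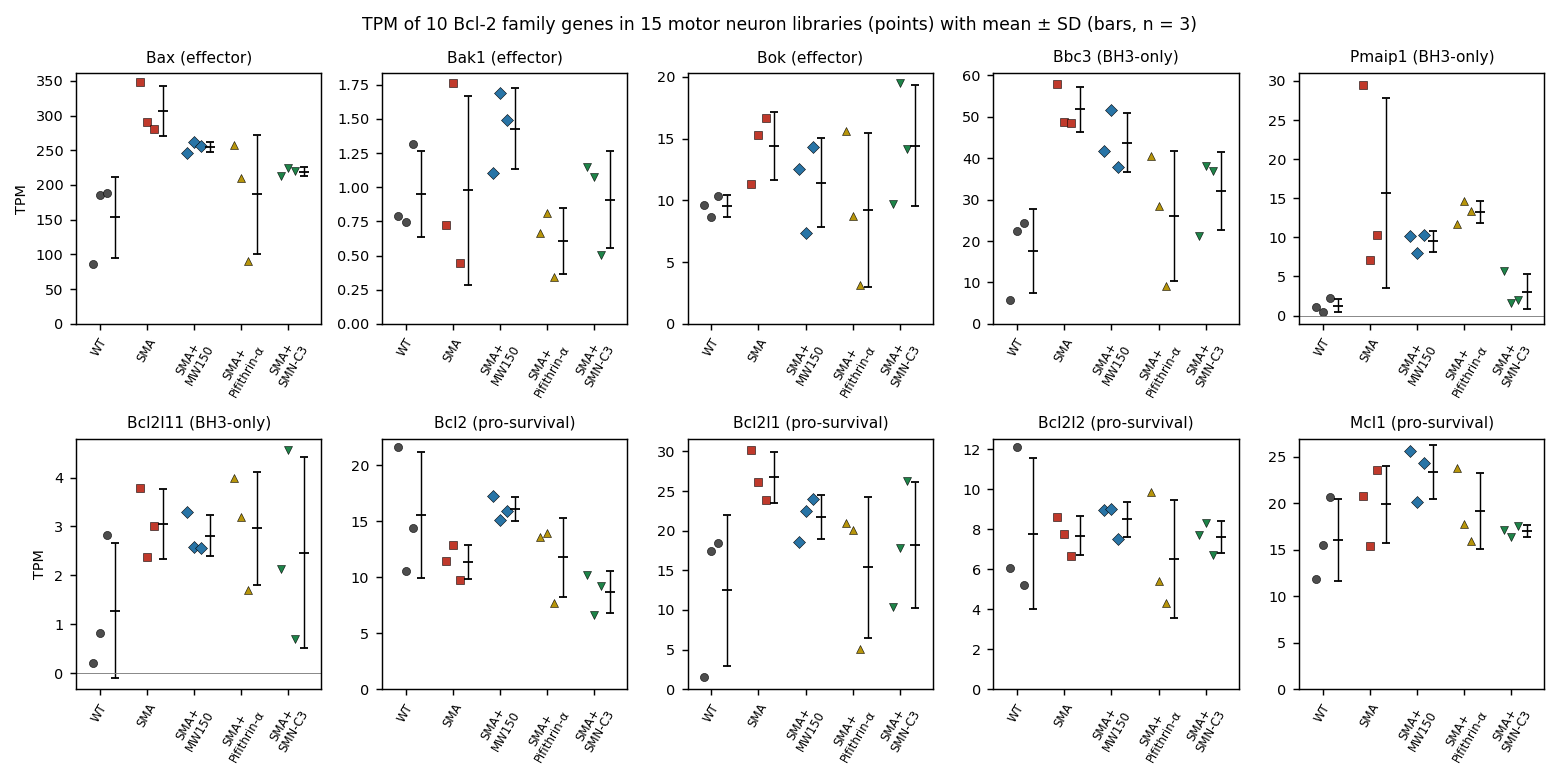
Levels of the 10 genes in TPM (vertical axes, linear) by group; each point is a library and each bar the mean ± SD of 3 libraries. Pmaip1 was at 7.08 TPM or more in every SMA, SMA+MW150 and SMA+Pifithrin-α library and at 5.69 TPM or less in every WT and SMA+SMN-C3 library.

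Between SMA and WT motor neurons, 1 of the 10 genes changed by the test: Pmaip1 rose. Bax, Bbc3, Bok and Bcl2l1 were higher in every SMA library than in every WT library, but their adjusted p-values missed the threshold. The remaining survival genes, Bcl2, Bcl2l2 and Mcl1, had overlapping levels in both groups. Changes are differences of log2(TPM+1) from limma, a linear model fitted to all genes with moderated variances. Calls are made where the p, adjusted by Benjamini-Hochberg over all genes tested, is under 0.05. The 15425 genes tested reached 1 TPM in 3 or more libraries and included all 10 members. Of all tested genes, 0.363% were called between SMA and WT (55 higher and 1 lower). Of the 13 microglia markers, 1 was called, higher in SMA (limma adjusted p = 0.0144), and all 13 had a positive change. An unadjusted p under 0.05 was found for 7 of them, against 13.5% of all genes. No marker in the other cell type lists was called. Over all tested genes the middle log2 change was 0.24, and after median-of-ratios scaling of the libraries it was 0.038, so single changes are to be read against that shift.

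Bax, the main effector in neurons, was the most abundant member in all 15 libraries and held 59.5% to 71.3% of the summed TPM of the 10 genes. It was at 86.1, 186 and 188 TPM in the WT libraries, against 348, 290 and 281 TPM in the SMA libraries. The groups did not overlap, and the lowest WT value was that of WT 1, the library with the highest mitochondrially encoded share. The log2 change was 1.07 (SE 0.34, 95% interval 0.35 to 1.80, limma adjusted p = 0.241), or 0.83 relative to the median of all genes. Without WT 1 the change was 0.70 and was not called (limma adjusted p = 0.785). Without both WT 1 and SMA+Pifithrin-α 3 the same change was called (limma adjusted p = 0.0446). That fit called 88 of 15235 genes, against 56 of 15425 with all libraries. The gene (ENSMUSG00000003873.11) lies on chromosome 7 at 45461697 to 45466898 on the minus strand of GRCm38, and the predicted gene Gm45808 overlaps it on the same strand, so reads could be split between them.

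Bok, a Bcl-2 relative that can permeabilise membranes on its own, was at 9.60, 8.66 and 10.4 TPM in WT, against 11.3, 15.3 and 16.6 TPM in SMA. All SMA libraries lay above WT, with a log2 change of 0.53 (SE 0.43, limma adjusted p = 0.540). Bak1, the partner of Bax, was near the minimum of the filter on low genes: its TPM ranged from 0.748 to 1.32 in WT and from 0.446 to 1.76 in SMA. Its log2 change was -0.02 (SE 0.34, limma adjusted p = 0.974), and it turned positive without WT 3, SMA 1 or SMA 3. Bok (ENSMUSG00000026278.14) lies on chromosome 1 at 93685660 to 93695764, and Bak1 (ENSMUSG00000057789.14) on chromosome 17 at 27019810 to 27029009, where Ggnbp1 overlaps it on the other strand. Almost all Bak1 TPM fell on transcripts annotated for nonsense-mediated decay in WT and in SMA 2 and SMA 3.

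Among the BH3-only genes, Pmaip1 had the largest change. It was at 1.07, 0.507 and 2.20 TPM in WT, against 29.5, 7.08 and 10.3 TPM in SMA. Every SMA library was above every WT library, and SMA 1, the library with the lowest mitochondrially encoded share, stood well above SMA 2 and SMA 3. The log2 change of Pmaip1 (ENSMUSG00000024521.8) was 2.71 (SE 0.47, 95% interval 1.71 to 3.71, limma adjusted p = 0.0144), or 2.47 relative to the median of all genes. The rise was of similar size without SMA 1 (2.15, limma adjusted p = 0.105), WT 1 (2.68, 0.0517) or WT 2 (2.45, 0.0748), but was then not called. The call was also lost when only these 2 groups were fitted (limma adjusted p = 0.308) and with no filter on low genes (0.0706). In limma's F test over the 5 groups Pmaip1 passed (adjusted p = 0.025), among 34 of 15425 genes, and no other member did (adjusted p of 0.456 to 0.898).

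Bbc3, a BH3-only gene whose protein can bind all pro-survival proteins, was at 5.88, 22.5 and 24.4 TPM in WT, against 57.9, 48.9 and 48.5 TPM in SMA. The SMA libraries were close to each other and all above WT, where WT 1 was lowest. The log2 change was 1.72 (SE 0.50, 95% interval 0.67 to 2.76, limma adjusted p = 0.194), and 1.11 without WT 1. Bcl2l11, which encodes BIM, was at 0.197, 0.812 and 2.83 TPM in WT, against 3.78, 2.37 and 3.00 TPM in SMA. Its groups overlapped at WT 3, and the log2 change of 0.99 (SE 0.47, limma adjusted p = 0.371) was not called. It was 0.61 without WT 1 and 1.74 with a pseudocount of 0.1. Bcl2l11 (ENSMUSG00000027381.16) lies on chromosome 2 at 128126038 to 128162547, and Bbc3 (ENSMUSG00000002083.13) on chromosome 7 at 16308393 to 16318205, both on the plus strand.

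The promoters of Bax and Bbc3 are shown because both genes are p53 targets, lay higher in SMA, and were the members whose windows held a match, perfect in Bax and with mismatches in Bbc3, to the p53 half-site, the 10-base motif that p53 binds in pairs. The windows run from 250 bases before to 50 bases after a start annotated by RefSeq on GRCm38.p6. Capitals mark the match.
Bax, chr7:45466849-45467148, minus strand: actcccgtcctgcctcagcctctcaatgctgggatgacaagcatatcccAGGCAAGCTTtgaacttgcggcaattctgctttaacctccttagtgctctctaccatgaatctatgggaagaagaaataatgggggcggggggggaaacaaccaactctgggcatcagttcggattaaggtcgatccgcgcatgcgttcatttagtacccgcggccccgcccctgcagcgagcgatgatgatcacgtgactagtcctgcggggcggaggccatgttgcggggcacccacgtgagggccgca
Bbc3, chr7:16309333-16309632, plus strand: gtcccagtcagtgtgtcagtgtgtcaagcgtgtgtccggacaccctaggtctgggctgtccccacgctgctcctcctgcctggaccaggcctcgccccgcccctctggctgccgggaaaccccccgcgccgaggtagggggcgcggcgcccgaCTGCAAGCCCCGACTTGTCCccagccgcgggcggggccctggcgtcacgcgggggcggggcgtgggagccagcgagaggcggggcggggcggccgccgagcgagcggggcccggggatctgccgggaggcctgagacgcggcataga
The Bax window held 1 perfect half-site, which began at base -201 from the gene start. No window of Bbc3 held a perfect half-site. The printed one held 2 adjacent imperfect half-sites, found by the wider search alone. They began at bases -97 and -87 from the annotated start of that window, which lies inside the gene coordinates given above. A perfect half-site was present in 8.36% of 32851 windows in the genome, and 2 adjacent half-sites with at most 3 mismatches outside the cores in 0.572%. The wider rule for adjacent pairs was chosen after a stricter search had found no pair in any member. The motif reads the same on both strands. Of the members 9 had a window, all but Pmaip1, and 14 windows in all. A match describes letters only and does not show that p53 binds there.

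Among the pro-survival genes, Bcl2l1 was at 1.503, 17.5 and 18.4 TPM in WT, against 30.2, 26.1 and 23.8 TPM in SMA. The groups did not overlap, but WT 1 lay far below WT 2 and WT 3. The log2 change was 1.52 (SE 0.64, 95% interval 0.17 to 2.86, limma adjusted p = 0.346), and 0.54 without WT 1. Mcl1, a short-lived protein that NOXA binds, was at 11.9, 15.5 and 20.7 TPM in WT, against 20.8, 15.4 and 23.5 TPM in SMA, with a log2 change of 0.31 (SE 0.28, limma adjusted p = 0.592). That change ran from 0.12 without WT 1 to 0.50 without WT 3. The founding member Bcl2 was at 21.6, 10.6 and 14.4 TPM in WT, against 11.5, 12.8 and 9.77 TPM in SMA. Its groups overlapped, and it had the lowest log2 change of the 10 (-0.37, SE 0.32, 95% interval -1.05 to 0.31, limma adjusted p = 0.569), which was -0.12 without WT 1 and -0.60 without WT 2. Bcl2l2, which encodes Bcl-w, a survival protein of neurons, ranged from 5.19 to 12.1 TPM in WT and from 6.64 to 8.59 TPM in SMA. Its log2 change was 0.06 (SE 0.35, limma adjusted p = 0.945), and -0.17 after median-of-ratios scaling. Bcl2l1 (ENSMUSG00000007659.18) lies on chromosome 2 at 152780668 to 152831728 and Bcl2 (ENSMUSG00000057329.7) on chromosome 1 at 106538178 to 106714274, where the antisense gene D630008O14Rik overlaps it. Bcl2l2 (ENSMUSG00000089682.10) lies on chromosome 14 at 54883377 to 54888234, overlapped on the same strand by Gm20521, and Mcl1 (ENSMUSG00000038612.16) on chromosome 3 at 95658788 to 95663176.

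**Figure D2:**
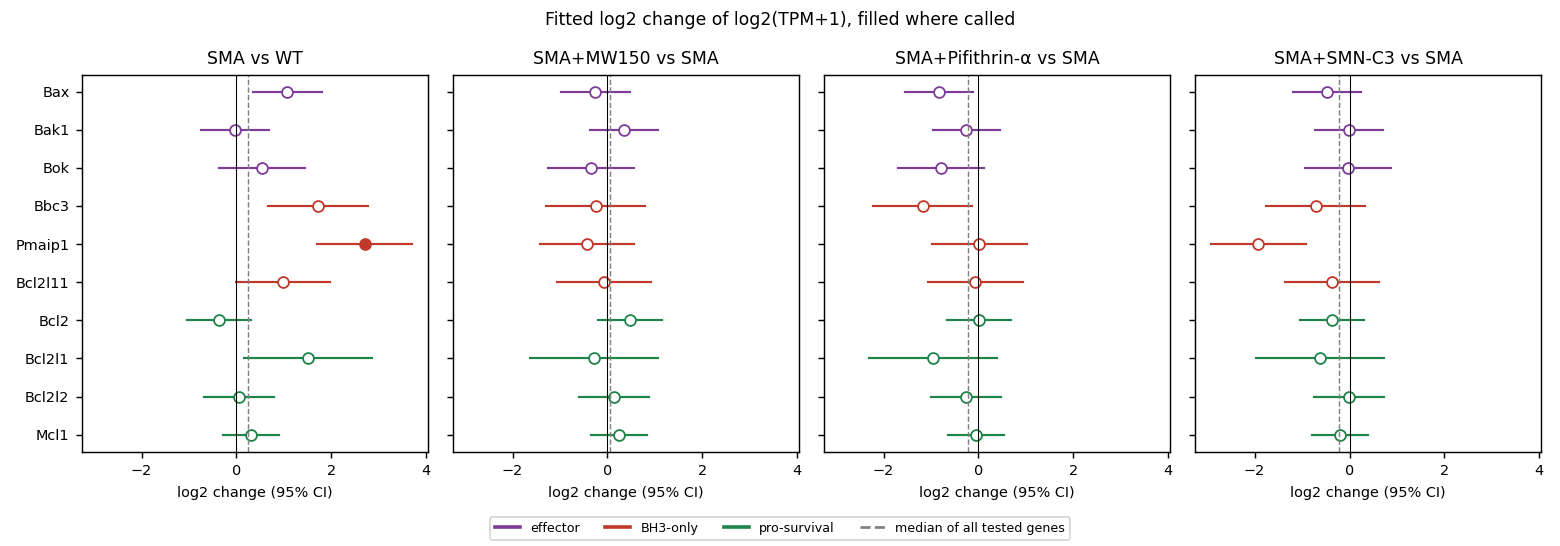
Fitted log2 change of log2(TPM+1) with its 95% interval for each gene (horizontal axis) in SMA against WT and in each treatment against SMA; filled points were called and the dashed line is the median of all tested genes. Pmaip1 in SMA against WT, at 2.71, is the filled point, and its interval against SMA lay below 0 with SMN-C3.

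Set side by side, 4 of the 6 pro-death genes (Bax, Bok, Bbc3 and Pmaip1) and 1 of the 4 pro-survival genes (Bcl2l1) lay above WT in all SMA libraries, against 14.5% of all tested genes. None of the 10 lay below WT in all SMA libraries, against 3.81% of all genes. The median log2 change was 1.03 over the pro-death genes, 0.18 over the pro-survival genes and 0.24 over all genes tested. The mean log2(TPM+1) of the pro-death genes minus that of the pro-survival genes was -0.62, -0.94 and -0.40 in the WT libraries and 0.24, 0.08 and 0.09 in the SMA libraries. Every SMA library was above every WT library, and above 0. With a pseudocount of 0.1 the SMA mean was -0.035, against -1.03 in WT, so the sign depends on the scale, and the SMA mean stayed above the WT mean. Taken as list means, the difference between the groups was larger for the BH3-only genes than for the effectors. Single genes did not all follow that order. The log2 changes were 1.07 for Bax, 0.53 for Bok and -0.02 for Bak1, which lay near 1 TPM. Those of the BH3-only genes were 2.71 for Pmaip1, 1.72 for Bbc3 and 0.99 for Bcl2l11. The BH3-only mean minus that of the survival genes was -1.55 ± 0.43 in WT and -0.13 ± 0.38 in SMA (SD, n = 3), while that of the effectors was 0.25 ± 0.24 and 0.40 ± 0.21. These sums are descriptions with no test.

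**Figure D3:**
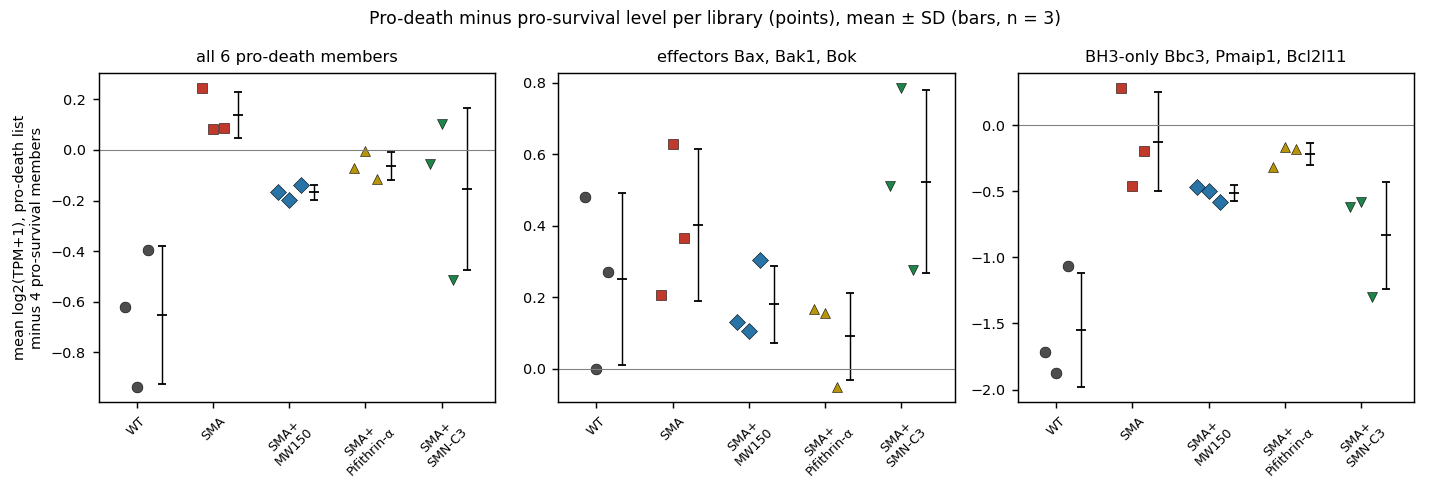
Mean log2(TPM+1) of the pro-death genes (left), the effectors (middle) and the BH3-only genes (right), minus the mean of the 4 pro-survival genes, per library (points) with the mean ± SD of 3 libraries (bars). In the left panel the SMA libraries lie between 0.08 and 0.24 and the WT libraries between -0.94 and -0.40.

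Ratios of single genes gave the same contrast in part. Bax stood at 11.5 ± 6.92 times the TPM of Bcl2 in WT and at 27.2 ± 4.09 times in SMA (SD, n = 3), with WT at 3.98, 17.6 and 13.1 and SMA at 30.3, 22.6 and 28.7. The groups did not overlap. Against Bcl2l1, Bax stood at 10.2 to 10.6 times in WT 2 and WT 3 and at 11.1 to 11.8 times in SMA, while WT 1 was at 57.2. Apart from that library, Bax and Bcl2l1 were thus both higher in SMA at a nearly equal ratio. Pmaip1 stood at 0.0764 ± 0.0388 times its partner Mcl1 in WT and at 0.773 ± 0.562 times in SMA, and Bbc3 at 1.04 ± 0.491 and 2.68 ± 0.568 times Mcl1.

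The 2 libraries with the highest mitochondrially encoded share, WT 1 and SMA+Pifithrin-α 3, were the lowest of all 15 for Bax (86.1 and 91.3 TPM), Bbc3 (5.88 and 9.24 TPM) and Bcl2l1 (1.503 and 5.13 TPM). The gene level of Pmaip1 did not have this order, since SMA+Pifithrin-α 3 was at 13.4 TPM. Of that, 9.65 TPM fell on the transcript Pmaip1-203. The transcript that held nearly all Pmaip1 in SMA, Pmaip1-201, was at 3.37 TPM in that library. With the mitochondrially encoded share as a covariate, the log2 change between SMA and WT was 0.51 for Bax, 0.82 for Bbc3 and 0.38 for Bcl2l1. With the mitochondrially encoded genes removed and TPM rescaled, it was 0.96, 1.62 and 1.45. What this share stands for in these libraries was not tested.

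**Figure D4:**
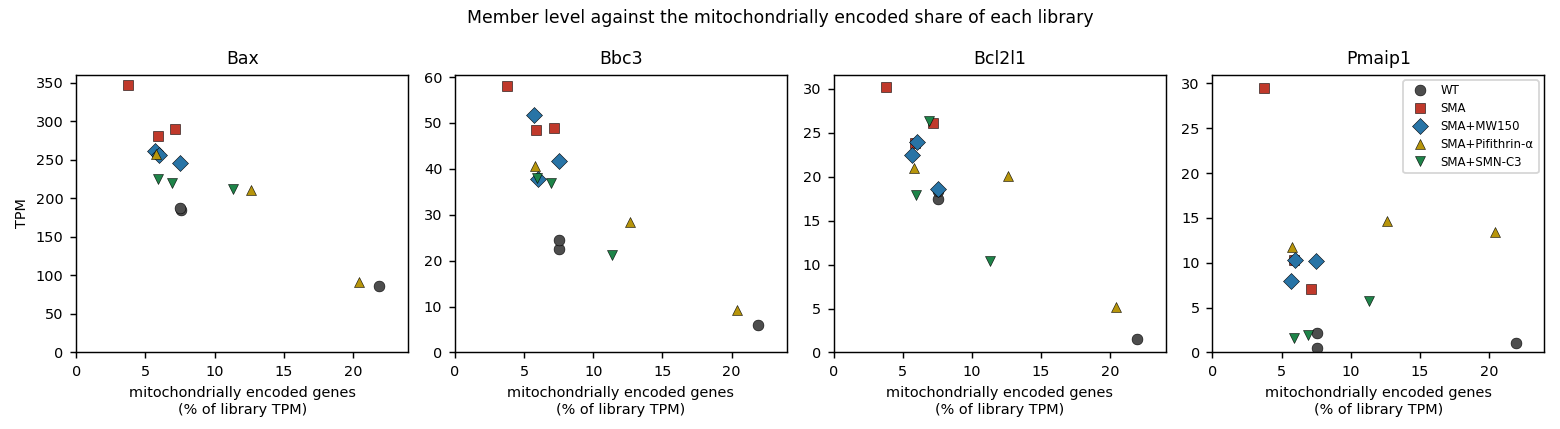
Level in TPM of Bax, Bbc3, Bcl2l1 and Pmaip1 against the share of library TPM in mitochondrially encoded genes (percent); each point is a library, marked by group. WT 1 and SMA+Pifithrin-α 3, at 21.9% and 20.4%, are the lowest points for Bax, Bbc3 and Bcl2l1.

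Each treated group was compared with the same 3 SMA libraries, so the 3 comparisons are not independent. With MW150 none of the 10 genes was called by limma, and none had an unadjusted p under 0.05. Of all genes, 0.00648% were called and 1.9% had an unadjusted p under 0.05. Bax was at 247, 262 and 256 TPM, below every SMA library, with a log2 change of -0.26 (SE 0.34, limma adjusted p = 1). In all, 3.41% of genes lay below SMA in every SMA+MW150 library. Bcl2 was at 17.2, 15.1 and 15.9 TPM, above every SMA library (log2 change 0.47, SE 0.32, limma adjusted p = 1), as were 7.53% of genes. The remaining members overlapped. Pmaip1 was at 10.2, 7.97 and 10.3 TPM (log2 change -0.43, SE 0.47, and 0.13 without SMA 1), and Bbc3 at 41.7, 51.7 and 37.9 TPM (-0.25, SE 0.50). The other 6 log2 changes ran from -0.34 for Bok to 0.35 for Bak1, with Bcl2l1 at -0.29, Bcl2l11 at -0.08, Bcl2l2 at 0.13 and Mcl1 at 0.24. The pro-death minus pro-survival level was -0.17, -0.20 and -0.14, below every SMA library and above every WT library.

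With Pifithrin-α, Bax, Bbc3 and Bcl2l1 were lower than in SMA in all libraries, while the levels of Pmaip1 overlapped. No member was called by limma, and Bax and Bbc3 had an unadjusted p under 0.05. Of all genes, 0.00648% were called and 10.7% (1652 genes) had an unadjusted p under 0.05. Bax was at 257, 211 and 91.3 TPM (log2 change -0.83, SE 0.34, limma adjusted p = 0.461), Bbc3 at 40.5, 28.5 and 9.24 TPM (-1.18, SE 0.50, limma adjusted p = 0.461) and Bcl2l1 at 21.03, 20.03 and 5.13 TPM (-0.96, SE 0.64, limma adjusted p = 0.521). Libraries lower than all of SMA were found for 9.76% of genes, libraries higher for 5.53%, and the median log2 change of all genes was -0.22. In each of these 3 genes the lowest library was SMA+Pifithrin-α 3. Without it the log2 changes were -0.39, -0.59 and -0.36. With array weights, which weight libraries by their agreement, Bax (-0.52, limma adjusted p = 0.0492) and Bbc3 (-0.82, 0.0454) were called, and 1574 genes in all. With the mitochondrially encoded share as a covariate the changes were -0.22, -0.21 and 0.28. Of the markers of other cells none was called, and most lay below SMA in mean. The median log2 change from SMA was -1.10 over the 13 microglia markers (13 lower), -1.29 over the 10 oligodendrocyte lineage markers (10 lower), -0.73 over the 10 astrocyte markers (9 lower) and -1.16 over the 5 red blood cell markers (5 lower). Their part in the changes of the members was not tested.

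Pmaip1 was at 11.7, 14.6 and 13.4 TPM with Pifithrin-α, below SMA 1 and above SMA 2 and SMA 3. Its log2 change was 0.01 (SE 0.47, 95% interval -0.98 to 1.01, limma adjusted p = 0.991), or 0.57 without SMA 1. Bok was at 15.6, 8.77 and 3.18 TPM (-0.79, SE 0.43, limma adjusted p = 0.472), or -0.26 without SMA+Pifithrin-α 3 and -1.25 without SMA+Pifithrin-α 1. Of the other 5 members, Bcl2 (0.01), Mcl1 (-0.05), Bcl2l11 (-0.06), Bak1 (-0.25) and Bcl2l2 (-0.27) had overlapping levels, and the signs of Mcl1 and Bcl2l11 turned after median-of-ratios scaling (0.20 and 0.11). The pro-death minus pro-survival level was -0.07, -0.0040 and -0.12, below every SMA library and above every WT library.

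With SMN-C3, Pmaip1 was lower than in SMA in every library, as were Bbc3 and Bax, but none of the 10 genes was called by limma. Pmaip1 was at 5.69, 1.59 and 1.96 TPM, which overlapped with the WT range of 0.507 to 2.20 TPM. The log2 change from SMA was -1.92 (SE 0.47, 95% interval -2.92 to -0.92, limma adjusted p = 0.175). Its unadjusted limma p of 0.000849 was the 1 member p under 0.05, against 8.53% of all genes. Pmaip1 was called with array weights (-1.95, limma adjusted p = 0.0216), a fit that called 231 genes in all. Bbc3 was at 21.2, 38.1 and 36.9 TPM (-0.72, SE 0.50, limma adjusted p = 0.735) and Bax at 212, 225 and 219.5 TPM (-0.48, SE 0.34, limma adjusted p = 0.750). Of all genes, 0.0648% (10 genes, all lower) were called, 18.2% lay below SMA in all libraries and 2.52% above, and the median log2 change was -0.23. Against that shift, Bax was at -0.25, Bbc3 at -0.49 and Pmaip1 at -1.69. The change of Bbc3 was -0.45 without SMA+SMN-C3 1. The microglia markers had a median log2 change of -0.91 (13 of 13 lower), the oligodendrocyte lineage markers of -0.83 (10 of 10), the astrocyte markers of -0.84 (8 of 10) and the red blood cell markers of -1.08 (5 of 5), and their part was not tested.

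The remaining members overlapped between SMA+SMN-C3 and SMA. Bcl2l1 was at 10.4, 17.9 and 26.3 TPM (-0.61, SE 0.64, and -0.28 without SMA+SMN-C3 1). Bcl2 was at 10.2, 6.59 and 9.20 TPM (-0.37, SE 0.32, and -0.20 without SMA+SMN-C3 2). The log2 changes of Bcl2l11 (-0.38), Mcl1 (-0.19), Bok (-0.03), Bak1 (-0.01) and Bcl2l2 (-0.01) were within their standard errors, and those of Mcl1 (0.06), Bok (0.22), Bak1 (0.11) and Bcl2l2 (0.22) turned positive after median-of-ratios scaling. The pro-death minus pro-survival level was -0.05, 0.10 and -0.51 and so ran from the WT to the SMA range. Bax stood at 20.8, 34.1 and 23.9 times the TPM of Bcl2, which overlapped with SMA (22.6 to 30.3) and lay above every WT library. With MW150 that ratio was 14.3 to 17.4 and with Pifithrin-α 11.8 to 18.9, both below every SMA library and overlapping with WT.

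Against WT, whose 3 libraries the comparisons also share, Pmaip1 was called with Pifithrin-α (log2 change 2.72, SE 0.47, limma adjusted p = 0.0328), where 0.117% of all genes were called. The call was lost without WT 1 (limma adjusted p = 0.0958) or WT 2 (0.193) and without any 1 of the 3 treated libraries (0.0554 to 0.210), with changes of 2.46 to 2.80. It was also lost with no filter (0.187), with only these groups fitted (0.654) and without both WT 1 and SMA+Pifithrin-α 3 (0.0838). With MW150 Pmaip1 was 2.27 above WT (SE 0.47, limma adjusted p = 0.0757), and it was called with array weights (0.00822), with 91 genes in all. Of all genes, 0.143% were called there, and 3 members, Bax, Bbc3 and Pmaip1, had an unadjusted p under 0.05, as did 10.2% of all genes. With SMN-C3 the difference of Pmaip1 from WT was 0.79 (SE 0.47, 95% interval -0.21 to 1.79, limma adjusted p = 0.678), or 0.36 without SMA+SMN-C3 1. There 0.0194% of all genes were called and no member, and Bcl2 had the 1 unadjusted member p under 0.05, against 7.31% of all genes. Its log2 change was -0.74 (SE 0.32, limma adjusted p = 0.666), with all libraries below WT. The share of all genes that lay below WT in this way was not computed.

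Ordered by mean, Pmaip1 was at 1.26 ± 0.863 TPM in WT, 3.08 ± 2.27 in SMA+SMN-C3, 9.48 ± 1.31 in SMA+MW150, 13.3 ± 1.45 in SMA+Pifithrin-α and 15.6 ± 12.1 in SMA (SD, n = 3). SMA was highest through SMA 1 (29.5 TPM), and its median of 10.3 TPM lay below the lowest SMA+Pifithrin-α library. WT and SMA+SMN-C3 overlapped, and SMA overlapped with both SMA+MW150 and SMA+Pifithrin-α. At the level of the gene, all SMA+SMN-C3 libraries lay below all SMA+MW150 libraries, and those below all SMA+Pifithrin-α libraries. The share of all genes with such an order was not computed. For the transcript Pmaip1-201 the order did not hold. SMA+Pifithrin-α 3 was at 3.37 TPM there, below every SMA+MW150 library (7.97 to 10.3 TPM) and below SMA+SMN-C3 1 (5.69 TPM). Differences between treatments were not tested.

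The deposited transcript values show which transcripts carried these levels, as the quantifier divided reads among overlapping transcripts. Between SMA and WT 1 member transcript was called, Bax-203 (ENSMUST00000210392.1, 172 codons), which rose from 18.5 ± 7.83 to 79.3 ± 11.9 TPM (SD, n = 3). Of all tested transcripts 0.221% were called. The WT libraries were at 10.8, 18.1 and 26.5 TPM and the SMA libraries at 92.7, 70.2 and 74.97 TPM, with a log2 change of 2.12 (SE 0.40, limma adjusted p = 0.0401). The share of Bax-203 in Bax was 12.1% ± 2.19 in WT and 25.9% ± 1.44 in SMA. It was 26.6% ± 1.26 with MW150, 27.4% ± 2.06 with Pifithrin-α and 18.4% ± 4.24 with SMN-C3. Bax-201, which encodes the full protein of 192 codons, made up 81.6% ± 1.75 in WT and 63.7% ± 2.72 in SMA, and its log2 change was 0.72 (SE 0.34, limma adjusted p = 0.418). Leaving out WT 1, WT 2 or any SMA library ended the call of Bax-203, as did a replicate block.

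**Figure D5:**
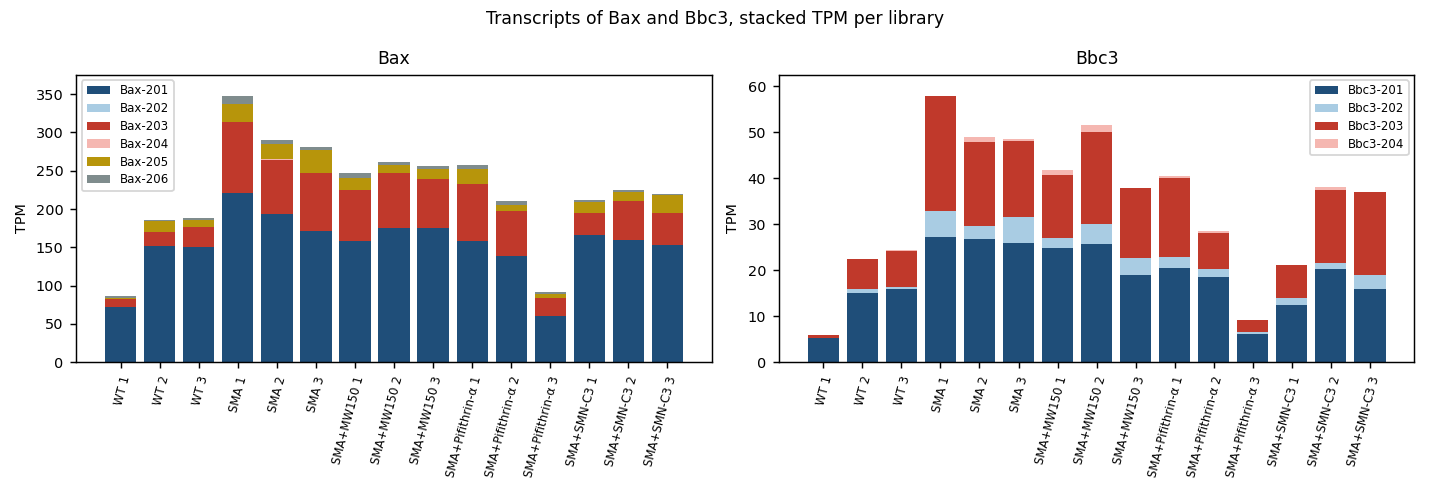
Stacked TPM of the annotated transcripts of Bax (left) and Bbc3 (right) in each of the 15 libraries; the height of a bar is the gene's level. Bax-203 was at 70.2 to 92.7 TPM in SMA and at 10.8 to 26.5 TPM in WT.

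Nearly all Pmaip1 in SMA came from Pmaip1-201 (103 codons), at 29.1, 7.08 and 10.3 TPM, with 0, 0.418 and 1.93 TPM in WT (log2 change 3.12, SE 0.68, limma adjusted p = 0.0921). In 3 libraries another transcript, Pmaip1-203 (51 codons), held most of the gene: WT 1 (1.07 TPM), SMA+Pifithrin-α 3 (9.65 TPM) and SMA+SMN-C3 2 (1.59 TPM). From SMA to SMA+Pifithrin-α, Pmaip1-201 had a log2 change of -0.58 (SE 0.68, limma adjusted p = 0.796). Bbc3-201 (193 codons) averaged 12.0 ± 5.93 TPM in WT against 26.6 ± 0.669 TPM in SMA (limma adjusted p = 0.334). The retained-intron transcript Bbc3-203 held 24.4% ± 11.1 of Bbc3 in WT and 38.3% ± 4.705 in SMA. Bcl2l1-201 and Bcl2l1-202, which share the 233 codons of Bcl-xL, held 85.0% ± 5.60 and 10.2% ± 4.502 of Bcl2l1 in WT and 72.9% ± 15.1 and 17.6% ± 18.0 in SMA (SD, n = 3). Bcl2l1-202 was at 14.1%, 37.0% and 1.62% in the SMA libraries, so its higher mean there rests on SMA 2. Mcl1-201 (331 codons) held all Mcl1 in WT. The shorter Mcl1-202 (285 codons) was listed at 0 in the WT libraries and reached 4.38, 0.347 and 3.75 TPM in SMA (limma adjusted p = 0.409).

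The other genes of the pathway gave the setting of the 10. None of them was called by limma in any of the 7 comparisons. Between SMA and WT an unadjusted p under 0.05 was found in the downstream and upstream lists alone, against 13.5% of all tested genes. Of the other Bcl-2 relatives 9 of 15 were tested, with a median log2 change between SMA and WT of -0.04. In all SMA libraries 2 (Bid and Bcl2l13) lay above WT, against 14.5% of all tested genes. Below WT lay 1 (Bnip3), against 3.81% of all tested genes. Bad, a BH3-only gene controlled by survival kinases, was at 18.7, 59.7 and 56.1 TPM in WT, against 80.5, 59.6 and 64.3 TPM in SMA (log2 change 0.75, SE 0.37, limma adjusted p = 0.383). Without WT 1 the change was 0.22. Bnip3, a relative tied to mitophagy and hypoxia, was at 255, 246 and 282 TPM in WT, against 211, 163 and 214 TPM in SMA (-0.42, SE 0.21, limma adjusted p = 0.383), with all SMA libraries lower. All 3 outer membrane channel genes overlapped, with Vdac1 at 0.37 (0.071 without WT 1) and Vdac3 at -0.34 (-0.18 without SMA 2).

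Downstream, against 14.5% of all tested genes, 6 of 10 apoptosome and caspase genes lay above WT in all SMA libraries, Pidd1 and Casp9 among them. Below WT lay 1 (Cycs, which encodes cytochrome c), against 3.81% of all tested genes. Cycs was at 800, 277 and 320 TPM in WT, against 244, 229 and 227 TPM in SMA. Its log2 change was -0.83 (limma adjusted p = 0.378), and -0.35 without WT 1. The list's median log2 change was 0.68, and Pidd1 and Casp9 had an unadjusted p under 0.05. Pidd1, a p53 target whose protein activates caspase-2, was at 0, 0.320 and 1.41 TPM in WT, against 12.1, 5.77 and 2.77 TPM in SMA (log2 change 2.24, SE 0.55, limma adjusted p = 0.121). Casp9, the caspase of the apoptosome, was at 2.24, 7.69 and 10.5 TPM in WT, against 11.2, 12.0 and 12.96 TPM in SMA (0.93, SE 0.43, limma adjusted p = 0.370), and the change was 0.39 without WT 1. Among caspase inhibitors and their antagonists, 9 of 10 were tested, and 1 (Birc5) lay above WT in all SMA libraries. Diablo, which relieves caspase inhibition, had a log2 change of 0.42 (SE 0.27), or 0.17 without WT 1. The inhibitor Birc6 had one of -0.59 (SE 0.43), with WT 1 at 96.3 TPM and WT 2 and WT 3 at 34.8 and 21.9 TPM, and without WT 1 it was -0.0055.

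Upstream, 4 of 11 tested regulators (Trp53, Trp73, Foxo3 and Ddit3) lay above WT in all SMA libraries, against the same 14.5% of all genes. The list had a median log2 change of 0.43, and 3 of its genes (Trp53, Trp73 and Ddit3) had an unadjusted p under 0.05, against 13.5% of all genes. Genes beyond the smallest 2 p-values of a list were named after their values were seen. Trp73, which encodes the p53 relative p73, was listed at 0 in all WT and all SMA+SMN-C3 libraries and at 6.39, 1.88 and 1.37 TPM in SMA (limma adjusted p = 0.0576 between SMA and WT). It was at 1.67, 0.764 and 0.430 TPM with MW150 and at 0.614, 0.263 and 0.0701 TPM with Pifithrin-α. Trp53, which encodes p53, was at 14.1, 16.1 and 15.7 TPM in WT, against 50.4, 37.8 and 34.9 TPM in SMA (log2 change 1.35, SE 0.36, limma adjusted p = 0.153).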

How the data were processed

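RNA was measured in 15 libraries, 3 in each of 5 groups taken from the sample titles. Per the submitters' processing notes, kallisto 0.44.0, DESeq2 and the build GRCm38.p6 (mm10) were used; the role of DESeq2, the index, the annotation release and read trimming are not given in the sources used here. The authors deposited TPM per gene and per transcript, so each library sums to 1000000, no counts were used, and depth and counting error are unknown. Gene TPM equalled the sum of the transcripts for all members. Of 118489 transcripts, 98.6% matched GENCODE M21, which gave coordinates, transcript types and codon counts.

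Values were taken as log2(TPM+1), a scale that understates the change of low genes. Genes (15425) or transcripts (41719) that reached 1 TPM in 3 or more libraries were fitted with limma 3.58.1 in R 4.3.3: 1 mean per group over all 15 libraries, no covariate, moderated variances with a trend, two-sided tests and Benjamini-Hochberg adjustment within each comparison. The scripts were tested on simulated data. Python 3.11.15, pandas 2.3.3 and matplotlib 3.10.9 were used.

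All 10 members were named in SMA against WT and in each treatment against SMA. Against WT the rule names members called there or in SMA against WT; Bax, Bbc3 and Bcl2 there were chosen after their values were seen. Of the other pathway genes, which had no call, the 2 per list with the smallest unadjusted p in SMA against WT were named. Members, lists and markers were chosen with earlier results of these data known. Replicate numbers are not said to pair animals. Same-numbered deviations from the group means correlated above 0.1 for all 3 numbers in 1 pair of groups, WT and SMA+SMN-C3 (0.285, 0.105 and 0.182), and there the replicate block changed no call of a member. Alternatives were another pseudocount, filters, scalings, weights, covariates, a block and left-out libraries.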

Additional observations from a re-analysis of the deposited data

How the results depend on the processing

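Of 680 log2 changes recomputed for the 43 named results, 605 kept direction and side of the threshold, 13 lost and 5 gained a call, and 57 turned sign. Of the results called with the reported settings none turned sign. The count of called members in SMA against WT (1) was 0 with no filter and with only the groups compared. It was 2 when WT 1 and SMA+Pifithrin-α 3 were both omitted, a fit that called 88 genes in all. With a library left out the count was 0 to 1. In SMA+Pifithrin-α against WT (1) it was 0 in those 3 settings and 0 to 1 with a library left out. With array weights it was 2 in SMA+Pifithrin-α, 1 in SMA+SMN-C3 (both against SMA) and 1 in SMA+MW150 against WT, where each was 0. The same weights called 1574, 231 and 91 genes in all there. In the other settings these counts were unchanged. With a replicate block the count of members was 1 in SMA against WT, 1 in SMA+Pifithrin-α against WT and 0 elsewhere, and the count of member transcripts was 0 in place of 1. That count was 0 to 1 with a library left out. Same-numbered libraries correlated at -0.342 to 0.285 in their deviations, which was over 0.1 for all numbers in 1 pair of groups, given with the methods.

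With a pseudocount of 0.1 the pro-death minus pro-survival level was -1.03 in WT, -0.035 in SMA, -0.31 in SMA+MW150, -0.27 in SMA+Pifithrin-α and -0.40 in SMA+SMN-C3. The signs that turned were those of members not called with the reported settings. In SMA against WT, Bcl2l2 was at -0.17 with median-of-ratios scaling, -0.040 with mitochondrially encoded genes removed, -0.12 with array weights, -0.22 with the mitochondrial covariate and -0.061 without WT 1 and SMA+Pifithrin-α 3. In SMA+Pifithrin-α against SMA, Bcl2l11 was at 0.11, 0.018, 0.075, 0.45 and 0.19 in those 5 settings. Mcl1 was at 0.20 and 0.067 in the first 2 of them and at 0.21 and 0.069 in the last 2. The covariate turned Pmaip1 (-0.026), Bcl2 (-0.081), Bcl2l1 (0.28) and Bcl2l2 (0.033). In SMA+SMN-C3 against SMA, scaling, removal and the covariate gave 0.11, 0.0068 and 0.012 for Bak1, 0.22, 0.0018 and 0.11 for Bok, and 0.22, 0.023 and 0.089 for Bcl2l2. Mcl1 was at 0.059 with scaling, and Bak1 at 0.028 with the smaller pseudocount. The cause was not tested.

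With a library left out, ranges that crossed 0 were -0.29 to 0.17 for Bak1 and -0.16 to 0.39 for Bcl2l2 in SMA against WT. With MW150 they were -0.83 to 0.13 for Pmaip1 and -0.21 to 0.048 for Bcl2l11. With Pifithrin-α they were -0.45 to 0.015 for Bak1, -0.38 to 0.57 for Pmaip1, -0.25 to 0.19 for Bcl2l11, -0.12 to 0.27 for Bcl2 and -0.21 to 0.079 for Mcl1. With SMN-C3 they were -0.21 to 0.26 for Bak1, -0.26 to 0.21 for Bok, -0.80 to 0.060 for Bcl2l11 and -0.099 to 0.065 for Bcl2l2. Depth is unknown, so how far it limits Bak1, Bcl2l11 and Pmaip1 in WT, all near 1 TPM, cannot be given.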

Other observations

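Within Bcl2, the shorter transcript Bcl2-202 (199 codons, against 236 in Bcl2-201) held 27.1% ± 7.02 of the gene with MW150 and 12.9% ± 2.54 in SMA (SD, n = 3). It was at 3.49, 4.02 and 5.45 TPM with MW150 and at 1.14, 1.87 and 1.38 TPM in SMA, so the libraries did not overlap. Its log2 change was 1.10 (SE 0.42, limma adjusted p = 0.993), which does not pass the test over all transcripts. Bcl2-202 was at 0.489, 0.800 and 1.06 TPM with SMN-C3, below every SMA library, and at 3.57, 2.49 and 2.27 TPM in WT. The shares of all transcripts whose libraries lie apart in these ways were not computed, so the lack of overlap cannot be weighed.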
